A study of Danio rerio with 10 samples.

Results

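Claudins are membrane proteins that polymerise into the strands of tight junctions, the belts that seal the space between neighbouring epithelial cells. Which claudins a cell makes sets how leaky that seal is and which ions pass it. In the zebrafish blastula the first epithelium is the enveloping layer, the outer cell sheet, and claudin E, made there, is needed for the spreading of the embryo over the yolk known as epiboly. Some claudin transcripts are laid down in the egg, while others are made only after the embryo's own genome becomes active.

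The genes cldna, cldnb, cldnc, cldne, cldnf, cldng, cldnh and cldni were taken by name, with every probe set that the array annotation gives them. This gave 11 probe sets for 8 genes, out of 15502 probe sets tested and 8796 different genes. The annotation lists cldnc as cldn3d and cldnh as cldn3c, and both were matched through the older names in a RefSeq gene table. Each gene has 1 probe set except cldng, which has 4, called here S1, S3, S4 and S5 after the ends of their identifiers. S1 is linked by the annotation to a RefSeq transcript of the gene, and the other 3 to other GenBank entries. By the array maker's naming, S4 carries a suffix for probes that can also match other sequences, and S5 and the cldni probe set one for probes shared by several transcripts of a gene.

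The study measured whole zebrafish embryos on 10 arrays in 2 experiments. In experiment 1, 3 arrays labelled morphant, from batches of eggs injected soon after fertilization with a morpholino (an antisense oligonucleotide) against the transcription factor gene sox19b, were set against 3 control arrays, all at 4.3 h post fertilization (hpf). The labels call the controls wild type and the series text says that they were injected with placebo. In experiment 2, 2 arrays of wild type embryos at 4 hpf, after the mid-blastula transition, were set against 2 at 2.5 hpf, before it. Around the transition the embryo's own genome is switched on and egg transcripts begin to be cleared. Each array of experiment 1 holds the RNA of 1 batch of embryos, whereas for experiment 2 nothing says that the samples came from separate clutches, so its p-values measure a spread that may be technical. The sources used here name neither strain nor morpholino dose.

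Levels are given on the log2 scale, per probe set, as the authors normalized them, so that a difference of 1 is a 2-fold change. For experiment 1, a rise or fall means a level higher or lower than in controls, and not a change over time. The experiments look normalized apart, judged by their array medians (5.40 to 5.44 and 6.16 to 6.26), and no level is compared between them. Replicate arrays correlated at 0.990 to 0.996 in controls and at 0.995 or above in each other group. A probe set was called dim in a group when its mean did not exceed the highest of 17 control probe sets with no zebrafish target. That level was 5.10 in arrays labelled morphant, 5.13 in controls, 6.33 at 4 hpf and 6.24 at 2.5 hpf. The brighter probe set of the targeted gene sox19b read 9.13, 8.80 and 9.18 in arrays labelled morphant and 8.48, 7.63 and 8.09 in controls. A morpholino need not lower the level of its target transcript, so these values do not check the labels.

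The gene cldng, for which RefSeq also lists the name cldn5l, gave opposite results by probe set in both experiments. Probe set S1 read 12.38, 12.45 and 12.23 in arrays labelled morphant and 10.02, 9.55 and 9.94 in controls. All 3 arrays labelled morphant lay above all 3 controls, and S1 rose by 2.52 (SE 0.14), which is 5.74-fold (limma, adjusted p = 3.54e-07). Probe set S5 read 7.27, 7.05 and 7.19 in arrays labelled morphant and 9.52, 9.58 and 9.86 in controls. It fell by 2.48 (SE 0.12), 5.59-fold, with no overlap of the groups (limma, adjusted p = 2.14e-07). In whole embryos fewer cells of a type and less RNA per cell cannot be told apart, here and in what follows.

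Probe sets S4 and S3 went the same way as S5. S4 read 7.17, 7.01 and 6.89 in arrays labelled morphant and 8.66, 8.88 and 8.90 in controls, and it fell by 1.79 (SE 0.12), 3.46-fold (limma, adjusted p = 1.15e-06). S3 read 4.58, 4.43 and 4.51 in arrays labelled morphant, where it was dim, and 6.50, 6.50 and 6.12 in controls. In the fit it fell by 1.87 (SE 0.13; limma, adjusted p = 1.38e-06), and against the background level it was at least 2.42-fold lower. The groups of S4 and of S3 did not overlap.

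Across the mid-blastula transition the signs of the cldng probe sets were turned round. At 4 hpf S1 read 12.11 and 12.03, against 12.40 and 12.42 at 2.5 hpf. It was bright at both times and fell by 0.34 (SE 0.09; limma, adjusted p = 0.0207), a call that was lost after joint quantile normalization (adjusted p = 0.0541), without 2.5 hpf replicate 2 (adjusted p = 0.0921) and without 4 hpf replicate 2 (adjusted p = 0.103). At 4 hpf S4 read 7.90 and 8.18, and at 2.5 hpf 5.86 and 6.20, where it was dim. S4 rose by 2.01 (SE 0.13; limma, adjusted p = 4.60e-07) and was at least 3.49-fold higher at 4 hpf.

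The other cldng probe sets rose over the same interval. The 4 hpf values of S5 were 6.78 and 6.62, against 5.64 and 5.31 at 2.5 hpf, where it was dim, a rise of 1.22 (SE 0.11; limma, adjusted p = 1.84e-05) and at least 1.38-fold. For S3 they were 5.47 and 5.32, against 3.75 and 3.89 at 2.5 hpf. S3 rose by 1.58 (SE 0.10; limma, adjusted p = 3.76e-07) but was dim at both times, so no fold is given. For each of the 4 probe sets the 2 arrays at 4 hpf lay on one side of the 2 at 2.5 hpf, as for 62.3% of all probe sets.

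**Figure D1:**
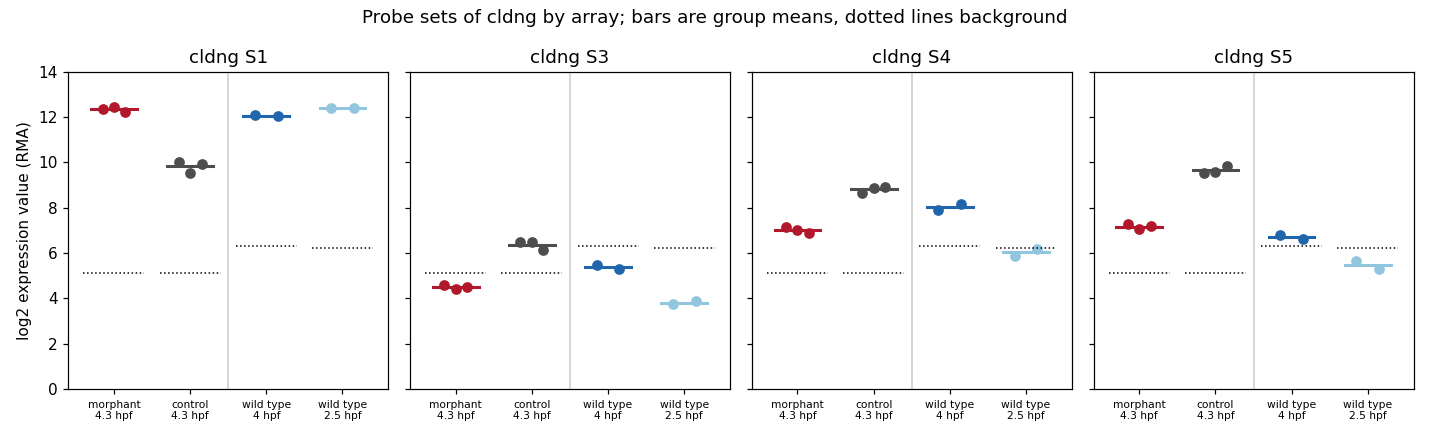
Values of the 4 cldng probe sets on each array, as log2 expression, for arrays labelled morphant and control arrays at 4.3 hpf and for wild type arrays at 4 and 2.5 hpf. Points are arrays, bars group means and dotted lines the background level of each group; S1 stands at 12.23 to 12.45 in arrays labelled morphant, above its controls, while S3, S4 and S5 stand below theirs.

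The disagreement was measured within each array as the difference between 2 probe sets of cldng, which any shift of a whole array leaves as it is. S1 exceeded S5 by 5.04 to 5.40 in arrays labelled morphant and by -0.03 to 0.50 in controls, on average by 5.19 ± 0.19 in arrays labelled morphant and by 0.18 ± 0.28 in controls (SD, n = 3 each). The gap of S1 over S4 was wider in the arrays labelled morphant by 4.31, and neither pair of groups overlapped. Both gaps gave an exact two-sided permutation p of 0.1, the smallest that 3 against 3 arrays allow (0.12 adjusted over the 6 pairs of cldng probe sets). The disagreement of the cldng probe sets was known from these arrays before any pair was compared, so the permutation p-values only describe it. S3, dim in the arrays labelled morphant, gives no measured gap there. In experiment 2 no gap is given, since S3 was dim at both times and S4 and S5 were dim at 2.5 hpf.

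S4 and S5 were both above background in experiment 1. S4 lay below S5 by 0.04 to 0.30 in arrays labelled morphant and by 0.70 to 0.96 in controls, with no overlap. The exact permutation p was 0.1, again the smallest possible, and 0.12 adjusted over the 6 pairs. This p-value, too, only describes the values. The RefSeq table lists 2 transcripts for cldng and 1 for each of the other 7 genes. Where the probes of the 4 probe sets lie on those transcripts was not analysed here, so the values cannot be assigned to one or the other.

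The claudins that were above background in controls and lower in the arrays labelled morphant included cldnb, a claudin of epidermis and of the lateral line primordium in later embryos. Cldnb read 5.97, 6.35 and 5.78 in arrays labelled morphant and 8.22, 8.37 and 8.16 in controls. It fell by 2.22 (SE 0.15), 4.65-fold, with the groups well apart and above background in both (limma, adjusted p = 1.20e-06). In wild type embryos it was dim at both times, with 3.76 and 3.94 at 4 hpf, against 3.87 and 3.87 at 2.5 hpf. The difference was -0.02 (95% interval -0.23 to 0.19; limma, adjusted p = 0.904).

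Cldnf read 2.31, 2.48 and 2.33 in arrays labelled morphant and 5.17, 5.22 and 5.06 in controls. It fell by 2.78 (SE 0.11; limma, adjusted p = 6.34e-08), the largest fitted difference among the 11 probe sets. Because its control mean of 5.15 barely exceeded the background level and its mean in the arrays labelled morphant was dim, the fall counts as at least 1.03-fold. In wild type embryos it read 3.29 and 3.50 at 4 hpf, against 3.41 and 3.31 at 2.5 hpf, dim at both times, with a difference of 0.04 (95% interval -0.18 to 0.25; limma, adjusted p = 0.828).

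Cldne, the claudin of the enveloping layer that is needed in epiboly, read 2.91, 2.68 and 3.05 in arrays labelled morphant and 4.18, 3.73 and 3.98 in controls. The groups did not overlap and the probe set fell by 1.08 (SE 0.14; limma, adjusted p = 1.27e-04), but it was dim in both groups, so no fold is given. It was also dim in wild type embryos, with 3.21 and 3.27 at 4 hpf, against 2.99 and 3.11 at 2.5 hpf, a difference of 0.19 (95% interval -0.01 to 0.39; limma, adjusted p = 0.157).

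**Figure D2:**
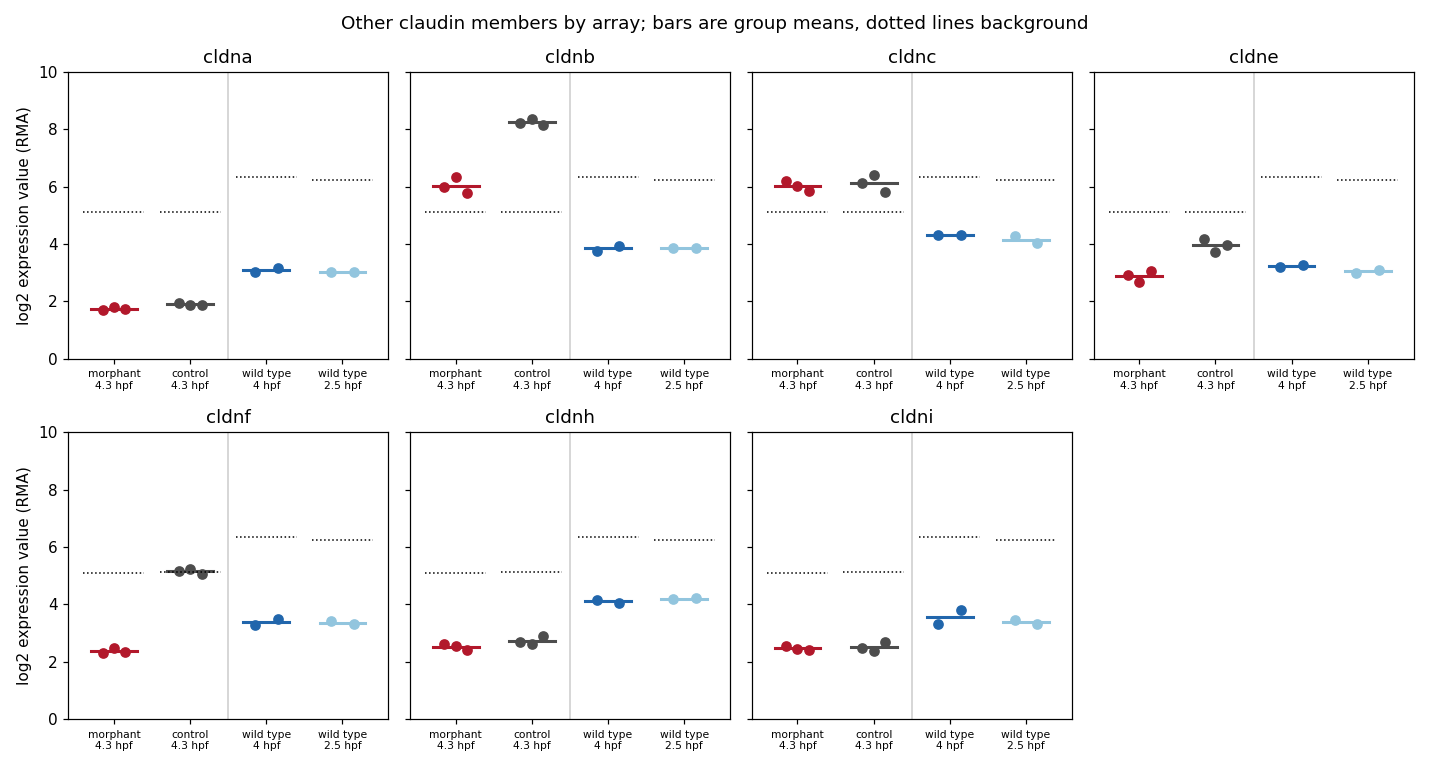
Log2 expression values of the 7 members with 1 probe set each, by array, in the order labelled morphant, control, 4 hpf and 2.5 hpf. Points are arrays, bars group means and dotted lines the background level; cldnb falls to 5.78 to 6.35 in arrays labelled morphant, against 8.16 to 8.37 in controls, whereas cldna, cldne, cldnh and cldni lie below background in every group.

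The remaining members were not called in either experiment. Cldnc was above background in experiment 1, at 6.20, 6.01 and 5.85 in arrays labelled morphant and 6.14, 6.41 and 5.83 in controls. Its groups overlapped, and the difference of -0.11 had a 95% interval of -0.45 to 0.24 (limma, adjusted p = 0.647). In wild type embryos cldnc was dim, with 4.33 and 4.32 at 4 hpf, against 4.28 and 4.02 at 2.5 hpf (difference 0.17; limma, adjusted p = 0.243).

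Cldnh, cldna, which marks the ear vesicle of later embryos, and cldni were dim in all 4 groups. Between arrays labelled morphant and controls they differed by -0.20, -0.16 and -0.04, with adjusted p-values of 0.208, 0.244 and 0.809 (limma). Their 95% intervals, -0.45 to 0.06 for cldnh, -0.39 to 0.06 for cldna and -0.29 to 0.21 for cldni, bound the change of the signal and not that of a transcript near background. Between 4 and 2.5 hpf they differed by -0.10, 0.05 and 0.17, with adjusted p-values of 0.452, 0.712 and 0.386 (limma). Leaving out 4 hpf replicate 1, at 3.32 against 3.79 in replicate 2, brought cldni to a call (0.40, adjusted p = 0.0161), still dim at both times.

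In all, 7 of the 11 claudin probe sets differed by the test between arrays labelled morphant and controls, 6 lower and 1 higher, against 42.5% of all probe sets called (21.2% lower and 21.3% higher). Over the same probe sets the median difference was -1.08, against -0.04 over all probe sets. That median is the value of cldne, which was dim in both groups, and 4 of the 11 probe sets are of cldng. The groups did not overlap for 9 of the 11, against 52.4% of all probe sets. Above background in at least 1 group were 7 of the 11, and of these 6 were called, cldnc being the exception. With only such probe sets tested, 5552 of all 8792 were called. Cldnf and cldng S3 passed this filter only through the controls, where they were higher. By gene, cldnb, cldne and cldnf were lower, and cldng was both. The same 1 higher and 6 lower calls were counted without control replicate 2, the array that correlated least with the others of its group.

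Between 4 and 2.5 hpf, 4 of the 11 probe sets were called, all of them of cldng, with 3 higher and 1 lower, against 19.5% of all probe sets called (9.66% higher and 9.88% lower). The median difference over the 11 was 0.17, against 0.05 over all probe sets. The groups did not overlap for 7 of the 11, close to the 62.3% of all probe sets. In wild type embryos 8 of the 11 were dim at both times, and only S1, S4 and S5 of cldng were above background in a group.

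**Figure D3:**
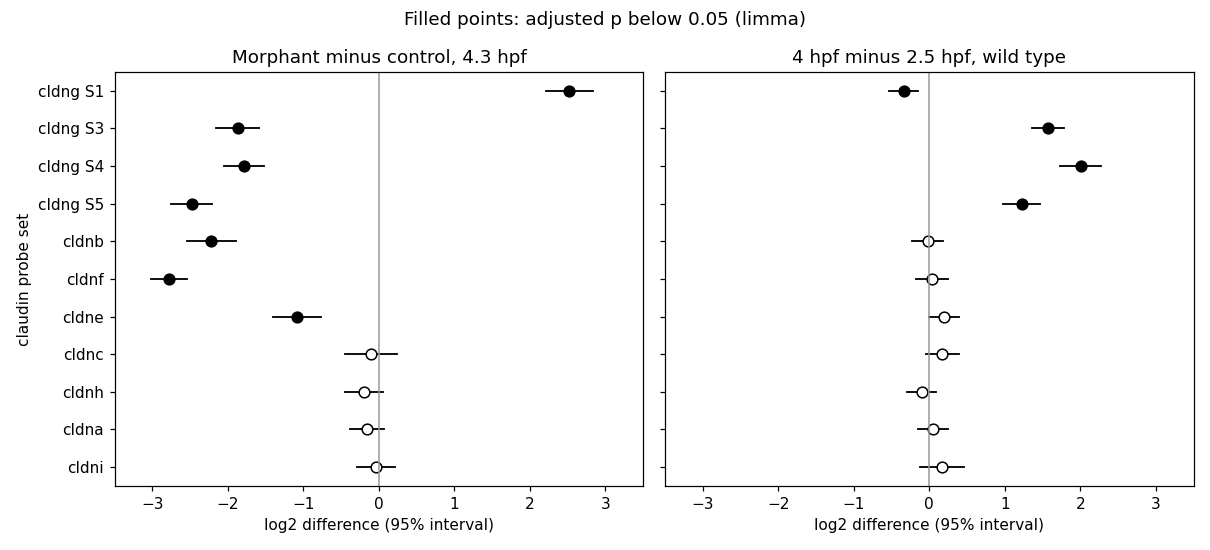
Log2 differences of the 11 claudin probe sets with their 95% intervals (limma), on the left for arrays labelled morphant minus control arrays and on the right for 4 hpf minus 2.5 hpf. Filled points have an adjusted p below 0.05; cldng S1 stands alone on the right of zero at 2.52 in the first panel and on the left of it at -0.34 among the called points of the second.

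Members that lie side by side in the genome did not all share a call. In the RefSeq gene table, used here for gene order only, cldne, cldnf and cldna follow each other directly, after cldnj. Along this run the differences between arrays labelled morphant and controls were -0.21 for cldnj, which was not called (limma, adjusted p = 0.132), -1.08 for cldne, -2.78 for cldnf and -0.16 for cldna. Cldnh, cldnc and cldnb also follow each other, and here cldnb was called with -2.22, while cldnc and cldnh were not called with -0.11 and -0.20. Cldnj (means of 3.87 in arrays labelled morphant and 4.08 in controls), cldne, cldna and cldnh were dim in both groups. Cldnf was dim in the arrays labelled morphant, so only cldnb and cldnc were neighbours above background in both groups. Cldng and cldni have no other claudin among their direct neighbours.

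The genes with the nearest profiles were listed by root mean square distance on the log2 scale over the 10 arrays, each experiment centred on its own mean, as a description only. For cldng S1 they were mylipa, org and zgc:195245, at distances of 0.080, 0.081 and 0.081. For S4 they were vox, cst3 and hnrnpa0b (0.195 to 0.257), for S3 cst3, ier5l and sox19a (0.182 to 0.227), and for S5 gata3, si:ch73-55i23.1 and si:ch211-152c8.5 (0.190 to 0.202). For cldnb they were rpl35, tnfaip8l2b and tuba5 (0.111 to 0.120), and for cldnf aplnra, bmp7a and crabp2b (0.075 to 0.105). For cldnc, which was not called, they were bcat2, ezh2 and si:ch211-132d3.4 (0.085 to 0.097). Of these members only S1 was above background in every group, so the other distances include signal of dim groups. S3 and cldnf were above background in controls alone. S3 and S4 share cst3 among their 3 nearest, and S1 shares none with the other cldng probe sets.

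Further claudins were called in both directions. Of 15 such genes of a fixed list, which leaves out cldn10l2 although it is on the array, by the brightest probe set of each, 3 were higher, 3 lower and 9 not called between arrays labelled morphant and controls, with a median difference of 0.05 against -0.02 over all genes by the same choice. That is 40.0% of the list called, below the 47.6% of all genes. With each array scaled instead on its Bacillus control probe sets, 6 were higher and 3 lower. This scaling was applied to values already normalized, and whether Bacillus RNA was added in equal amounts was not checked. Cldn8.2 read 3.50, 3.95 and 3.78 in arrays labelled morphant, where it was dim, and 7.41, 8.03 and 7.36 in controls, at least 5.65-fold lower (limma, adjusted p = 2.10e-07). Cldn23.1 read 6.19, 6.32 and 5.45 in arrays labelled morphant and 8.89, 9.51 and 9.03 in controls, 8.91-fold lower (limma, adjusted p = 1.91e-06). The groups were far apart for both genes, and both were dim at 4 and at 2.5 hpf.

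The third that fell, cldn11b, read 4.79 ± 0.05 in arrays labelled morphant and 5.46 ± 0.16 in controls (SD, n = 3 each), at least 1.28-fold lower (limma, adjusted p = 7.00e-04). Cldnd was bright throughout. It read 11.63, 11.72 and 11.71 in arrays labelled morphant and 11.18, 10.51 and 10.91 in controls, a rise of 0.82 (limma, adjusted p = 0.00146). The 4 hpf values of cldnd were 12.44 and 12.48, against 12.70 and 12.64 at 2.5 hpf, a difference of -0.21 that was not called (limma, adjusted p = 0.116). Cldn12 rose by 0.93 and cldn15b by 0.91 in the arrays labelled morphant (limma, adjusted p = 8.60e-05 and 6.76e-05). Cldn12 and cldn15b differed by 0.02 and 0.03 between 4 and 2.5 hpf and were not called there (limma, adjusted p = 0.882 and 0.847).

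Between 4 and 2.5 hpf, 2 of the 15 further claudins were called, both higher: cldn23.1 by 0.58 and cldnj by 0.36 (limma, adjusted p = 8.93e-04 and 0.0166). Both were dim at both times, and the 13.3% called lay below the 20.7% of all genes. Cldn7b, whose brighter probe set was not called in the arrays labelled morphant (-0.26; limma, adjusted p = 0.189), fell by its other probe set (-0.56; limma, adjusted p = 0.00679).

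**Figure D4:**
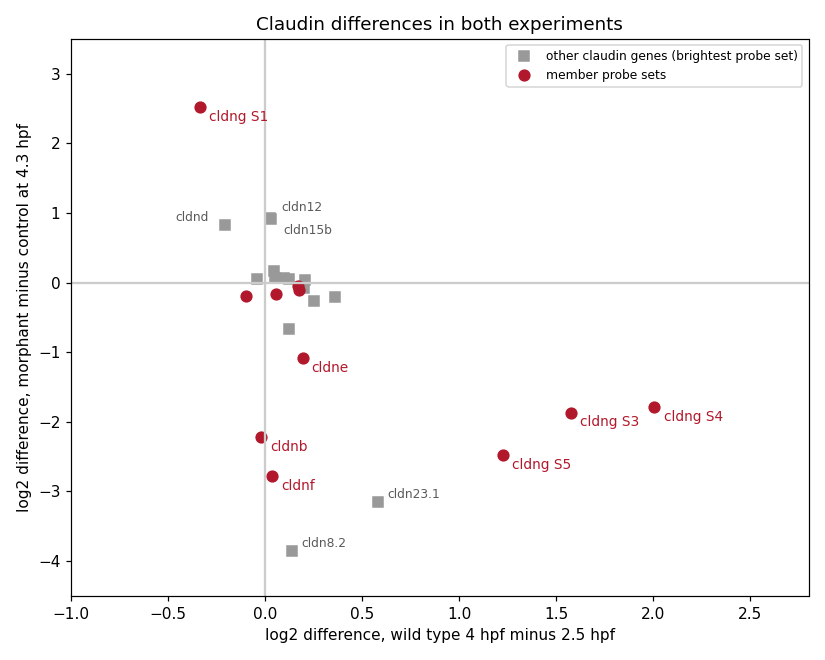
Log2 difference between arrays labelled morphant and controls at 4.3 hpf (vertical) against that between 4 and 2.5 hpf (horizontal), with red circles for the 11 member probe sets and grey squares for 15 further claudin genes. The experiments share no array; cldng S1 lies at the upper left (2.52 and -0.34), S3, S4 and S5 at the lower right, and cldnb, cldnf and cldn8.2 low with a horizontal value near 0.

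Claudins share the tight junction with other proteins. Of 24 measured genes for its other membrane proteins, scaffolds and polarity proteins, 6 were lower, 3 higher and 15 not called between arrays labelled morphant and controls, with a median of -0.12 against -0.02 over all genes. The 37.5% called lay below the 47.6% of all genes. Under the Bacillus scaling the counts were 2 lower and 4 higher, so their balance rests on the scaling. The largest falls were those of cgnl1, a cingulin-like plaque protein (-0.96), jam2a, a junctional adhesion molecule (-0.89), and magi1b, a scaffold, at least 1.49-fold lower (limma, adjusted p = 2.21e-04, 0.00109 and 0.0122). The rises were those of the polarity genes pard6gb (1.49), lin7b (at least 1.40-fold) and pals1a (0.41; limma, adjusted p = 1.65e-06, 0.00227 and 0.0258). Oclna, one of the genes for occludin, read 11.11 in arrays labelled morphant and 11.20 in controls, and was not called (limma, adjusted p = 0.572). Between 4 and 2.5 hpf, 2 of the 24 were called, both higher: tjp2b, a ZO scaffold, by 0.30, and lin7b, dim at both times, by 0.41 (limma, adjusted p = 0.0471 and 0.00780). These are 8.33% of the list, against 20.7% of all genes.

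Markers of the enveloping layer, of the yolk syncytial layer and of the oocyte were set beside the claudins in experiment 1, in which 47.6% of all genes were called. Of 33 enveloping layer markers, 21 were lower and 1, agr2, was higher in the arrays labelled morphant (66.7% called). Agr2 was dim in both groups, and so were krt91, anxa1b and s100a10b among the 21 lower. Under the Bacillus scaling 19 were lower and 7 higher. Of these markers 16 were above background in the arrays labelled morphant and 22 in controls. Their mean log2 level per array was 5.18 to 5.43 in arrays labelled morphant and 6.78 to 7.25 in controls. Of 19 yolk syncytial layer markers 11 were lower and 0 higher (57.9% called), with means of 4.16 to 4.36 in arrays labelled morphant and 5.43 to 6.02 in controls. Only 4 of the 19 were above background in arrays labelled morphant, and 12 in controls. Of 31 maternal oocyte markers 21 were higher and 1, jdp2b, lower (71.0% called), with means of 9.31 to 9.35 in arrays labelled morphant and 7.99 to 8.37 in controls. None of these ranges overlapped. The part of these layers and of egg transcripts in the claudin differences was not tested.

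Between 4 and 2.5 hpf, 10 of the 33 enveloping layer markers were higher and 0 lower, 30.3% against 20.7% of all genes, with array means of 5.65 to 5.67 at 4 hpf and 5.25 to 5.38 at 2.5 hpf. Of all 33, only 8 were above background at 4 hpf and 6 at 2.5 hpf. Among the called rises, krt4, krt18a.1, lye, sult6b1, gata3 and gata2a were dim at both times. Klf17, tfap2a, cd9b and myh9a were called and above background at 4 hpf. Of the 19 yolk syncytial layer markers 2 were higher and 0 lower, 10.5% called, below the share of all genes. Of those 19, 2 were above background at 4 hpf and 1 at 2.5 hpf. Of the maternal oocyte markers 12 were lower and 1, ccnb2, higher (41.9% called), with means of 9.49 to 9.50 at 4 hpf and 9.69 to 9.72 at 2.5 hpf. These lists were chosen with earlier results of these data known, and their counts stand here as values only.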

How the data were processed

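The authors deposited log2 expression values per probe set, made with the affy package by RMA, which corrects background, normalizes arrays to each other and merges probes, per the submitters' processing notes; versions, scan dates and raw intensities were not used here. Of 15617 probe sets, 115 AFFX controls were left out. The annotation gave 1 gene for 10795 tested probe sets, several for 135 and none for 4572. Of 8796 genes, 8723 were found, through their Entrez identifiers, in a RefSeq table of the assembly GRCz12tu. A two-sided limma 3.58.1 fit (R 4.3.3, lmFit and eBayes, with no term but the group) was made per experiment, and p-values adjusted by Benjamini-Hochberg over the 15502 probe sets were called below 0.05. The fit was tested on simulated data. Arrays give no counts, so their number limits precision. Folds against a dim group are lower bounds set against the group's background level. Permutation tests listed every regrouping of the arrays. Figures used matplotlib 3.10.9 in Python 3.11.15.

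Replicate numbers were checked for pairing: after removal of group means, arrays of 1 number correlated at 0.318, 0.202 and 0.114 in experiment 1, all above 0.1, and at -0.02 in experiment 2. Any pairing in experiment 1 is read from these correlations alone and not from the labels. Arrays of unlike numbers were not correlated, so pairing is not established, and the main fit leaves it out. Alternatives were median centring, scaling on 27 Bacillus control probe sets, joint quantile normalization, leaving out dim probe sets, eBayes with trend and robust settings, the replicate block and leaving out each array. The named genes were all probe sets of the 8 members, the 3 nearest profiles of the members above background and every called further claudin. To these were added the 3 largest calls each way by fitted difference in the other junction lists. Cdh2, jupa, cldn7b, oclna, agr2, jdp2b, ccnb2 and, for experiment 1, cdh1 were named after their values were seen. The other enveloping layer markers were named by their call and by whether they were dim. The members and lists were chosen with earlier results of these data known.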

Additional observations from a re-analysis of the deposited data

How the results depend on the processing

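The 7 claudin calls of experiment 1 stayed at 1 higher and 6 lower under each alternative and without each array, except that leaving out dim probe sets removed cldne from testing and left 6. In experiment 2 the 4 calls became 3 under joint quantile normalization and with dim probe sets left out, and 3 to 5 without each array. With the replicate block (pairing by replicate number) 7 and 4 claudin probe sets were called and no claudin call changed; over all probe sets 6920 and 3241 were called instead of 6591 and 3030. Without each array, 5676 to 6356 were called in experiment 1, and for experiment 2 the total was 1426 (without 2.5 hpf replicate 2) to 2813. Scaling on the Bacillus controls put the median of all probe sets in experiment 1 at 0.21 instead of -0.04, with 5631 higher and 1987 lower instead of 3307 and 3284, and median centring gave 754 higher and 2302 lower in experiment 2 instead of 1498 and 1532.

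Signs turned only for differences that were not called in the main analysis. In experiment 1 these were, under Bacillus scaling, cldna (0.080), cldnc (0.13), cldnh (0.045) and cldni (0.20), and under joint quantile normalization cldni (5e-04). Without each array, cldnc lay between -0.25 and 0.035 (highest without control replicate 2) and cldni between -0.11 and 0.039 (highest without control replicate 3). In experiment 2 they were cldna and cldnf under median centring (-0.031 and -0.049) and joint quantile normalization (-0.0069 and -0.031). Among the fits of experiment 2 that left out an array, the lowest values came without 4 hpf replicate 2 and the highest without 4 hpf replicate 1. These were -0.017 and 0.12 for cldna, -0.11 and 0.072 for cldnb, -0.065 and 0.14 for cldnf, and -0.064 and 0.40 for cldni. Without 2.5 hpf replicate 2 cldnf was at -0.02. The cause was not tested. The within-array gaps of cldng S1 over S4 and over S5 in experiment 1 kept their sign, at 4.13 to 4.48 and 4.90 to 5.16.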

Other observations

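Genes of adherens junctions and desmosomes, the other contacts of epithelial cells, were also measured. Of 16 such genes, 8 were lower, 2 higher and 6 not called in the arrays labelled morphant, with a median of -0.39 against -0.02 over all genes. The 62.5% called compares with 47.6% of all genes. The desmosomal plaque gene pkp3a was at least 1.43-fold lower and periplakin ppl at least 5.06-fold lower, both dim in the arrays labelled morphant (limma, adjusted p = 3.13e-06 and 6.15e-07). Envoplakin evpla, dim in both groups, fell by 2.03 on the log2 scale (limma, adjusted p = 3.04e-05). These 3 had the lowest fitted differences of the list, an order that dim probe sets do not settle. The cadherin gene cdh2, dim in the arrays labelled morphant, was at least 3.04-fold lower, and the plakoglobin gene jupa, above background in both groups, was 2.40-fold lower (limma, adjusted p = 2.12e-05 and 5.22e-05). The adhesion genes nectin3b and epcam rose by 1.01 and 0.35 (limma, adjusted p = 9.85e-05 and 0.0333). E-cadherin cdh1 read 7.68 in arrays labelled morphant and 8.01 in controls and was not called (limma, adjusted p = 0.0791). Between 4 and 2.5 hpf cdh1 was the 1 gene of the 16 that was called (6.25%, against 20.7% of all genes), higher by 0.42 (limma, adjusted p = 0.0148); none was called higher without 2.5 hpf replicate 1 or without 4 hpf replicate 1. Under the Bacillus scaling 6 were lower and 2 higher in the arrays labelled morphant.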
